A study of Mus musculus with 5 samples.

Results

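Transcripts of heat shock chaperones were measured in GFP-positive lung cells that had been sorted from SPC-GFP mice at postnatal day 2. The 10 genes considered were Hspa1a, Hspa1b, Hsph1, Dnajb1, Hsp90aa1, Hsp90ab1, Hspa8, Hspd1, Hspe1 and Hspb1. Members were all probe sets on the array whose only annotated gene symbol was 1 of these, which gave 22 of 34958 probe sets with 1 symbol and covered 9 of the 10 genes. Hsp90ab1 was not analysed here.

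The pups came from matings of SPC-GFP transgenic mice with the outbred ICR strain, and the lungs were dissociated with trypsin and EDTA before the sort. SPC stands for surfactant protein C, which alveolar type 2 cells make. The 5 biological replicates, each on its own array, formed 1 group, with no untreated, older or unsorted samples to set them against. Titles and source name the sorted cells alveolar type 2 cells, the design text names them ciliated cells, and whether a replicate was 1 pup or a pool is not stated. The 8 alveolar type 2 markers checked (Sftpc, Sftpb, Sftpa1, Sftpd, Abca3, Slc34a2, Napsa and Lpcat1) lay above background, as did 8 of 8 ciliated cell markers and 75.2% of all genes. All alveolar type 1, club, fibroblast and smooth muscle, endothelial and immune markers checked lay above background too. Such calls therefore cannot tell which name is right. These are bulk samples, so fewer cells of a type and less RNA per cell cannot be told apart.

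Heat shock proteins are chaperones that hold and refold unfolded proteins. HSP70 works with a J-domain partner that delivers the client and with a nucleotide exchange factor that releases it, HSP90 matures kinases and steroid receptors, small heat shock proteins hold unfolded clients, and HSP60 with its lid HSP10 folds proteins inside mitochondria. Part of the family is made at all times, and part is induced within minutes by heat, oxidants or the handling of tissue, when the transcription factor HSF1 binds heat shock elements, inverted repeats of GAA, in front of these genes.

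The promoters of the members are shown for the heat shock elements they hold. A link between these elements and the values in the replicates was not tested. RefSeq promoter windows of build GRCm38.p6 were at hand for 7 of the 10 genes, in 10 windows of 300 bases that end 50 bases past an annotated start. A heat shock element of 2 units (GAANNTTC or TTCNNGAA, each its own reverse complement, so both strands are covered, and overlapping matches kept) was found in the windows of 6 of the 7 genes. The exception was Dnajb1. Among all 32851 promoter windows, 15.1% held it. An element of 3 units, in which a further inverted GAA follows the shorter motif at the same spacing and which therefore overlaps it, was found for Hsph1, Hspd1 and Hspe1, and in 0.603% of all windows. Both shares are per window, while members were counted per gene over any of their windows, and the first window of Hspd1 held no match. The members are also not independent, since Hspa1a and Hspa1b are near-identical here and Hspd1 and Hspe1 share the same bases. The sequences below run 5′ to 3′ on the gene's strand, with matches in capitals.
Hspa1a, chr17:34972206-34972406, minus strand, positions −250 to −50 from the start: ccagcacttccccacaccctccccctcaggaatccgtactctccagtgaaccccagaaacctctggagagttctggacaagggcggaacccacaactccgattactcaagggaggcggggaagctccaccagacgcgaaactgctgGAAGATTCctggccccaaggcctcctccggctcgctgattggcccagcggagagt
Hspa1b, chr17:34959288-34959488, minus strand, positions −250 to −50: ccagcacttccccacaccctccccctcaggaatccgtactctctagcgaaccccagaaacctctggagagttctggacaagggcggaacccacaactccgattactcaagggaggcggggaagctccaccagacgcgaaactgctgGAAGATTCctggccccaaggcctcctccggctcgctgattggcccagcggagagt
Hspb1, chr5:135887769-135887869, plus strand, positions −150 to −50: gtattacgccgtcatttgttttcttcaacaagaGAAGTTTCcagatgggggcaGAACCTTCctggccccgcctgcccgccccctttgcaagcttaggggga
Hsph1, chr5:149636351-149636380, minus strand, positions −44 to −15: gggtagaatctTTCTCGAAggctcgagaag
Hspe1, chr1:55088053-55088082, plus strand, positions −95 to −66: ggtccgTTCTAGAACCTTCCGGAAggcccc

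The 250 bases before the start of Hspa1a and Hspa1b differed at 3 positions, 2 of them in the stretches shown, and both copies carry the same element, beginning at position −104. The capitals of Hspe1 hold 3 overlapping 2-unit matches and 2 overlapping 3-unit matches. The same bases, read on the other strand, lie before an annotated start of Hspd1, since the genes of HSP60 and HSP10 are arranged head to head. In Hspb1 the elements began at positions −117 and −97. The 3-unit match of Hsph1 lay past its start and is not shown. A match is a string of letters in this window and not a measured binding site.

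**Figure D1:**
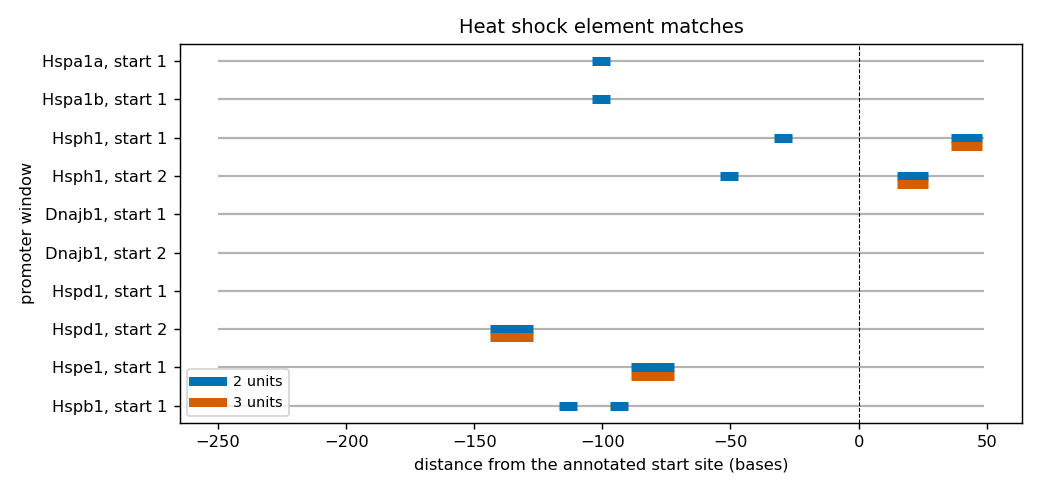
Positions of heat shock element matches in the promoter windows of 7 members, in bases from the annotated start (dashed line); blue bars mark 2-unit and orange bars 3-unit matches. Hspa1a and Hspa1b each have 1 match, at −104, and the windows of Dnajb1 and the first start of Hspd1 have none.

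Signal is given on a log2 scale as deposited, and different probe sets are not ranked against each other, since each binds with its own strength. The background of an array was the 95th percentile of 85 probe sets of olfactory, vomeronasal, taste and trace amine receptor genes, and lay between 5.33 and 5.63 on the 5 arrays. Of the 22 member probe sets, 21 passed limma's test for signal above background (one-sided, Benjamini-Hochberg adjusted p under 0.05), against 72.1% of all probe sets tested. The exception was 1433251_at of Hsp90aa1, at 5.26 ± 0.14 (SD, n = 5). With 1 probe set per gene it was 9 of 9 members, against 75.2% of all genes. Another probe set of Hsp90aa1, 1441827_x_at, read 6.39, 5.94, 5.62, 5.75 and 5.43 in replicates 1 to 5. It was called only narrowly (limma adjusted p = 0.0225), and not without replicate 1 or 2 (limma adjusted p = 0.124 and 0.0668).

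Hspa1a encodes a stress-inducible HSP70 and had the widest range of all member probe sets. Its probe set 1452388_at read 10.33, 9.39, 9.48, 10.67 and 8.66 in replicates 1 to 5. Replicate 4 was highest and replicate 5 lowest, a range of 2.01 log2 units or 4.04-fold. Its mean was 9.70 ± 0.80 (SD, n = 5), 4.25 ± 0.20 (SE) above background.

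Hspa1b, the neighbouring copy that encodes almost the same protein, was measured by 3 probe sets. Probe set 1427126_at read 11.87, 11.22, 10.90, 12.15 and 10.37 in replicates 1 to 5, and 1427127_x_at read 11.65, 11.25, 10.93, 12.23 and 10.57. Probe set 1452318_a_at, at a higher signal, read 13.45, 13.25, 12.93, 13.55 and 12.77. In these 3 probe sets the order of the replicates was the same, with replicate 4 highest, replicate 1 next and replicate 5 lowest. The ranges were 3.44-fold, 3.15-fold and 1.72-fold. Because the copies are near-identical, signal of Hspa1a and Hspa1b cannot be assigned to 1 copy with certainty.

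Dnajb1, the J-domain partner that stimulates the ATPase of HSP70, was high in the same replicates. Probe set 1416755_at read 12.40, 12.06, 11.95, 12.27 and 11.71 in replicates 1 to 5, and 1416756_at read 11.76, 11.18, 11.20, 11.53 and 10.76. Replicates 1 and 4 were the highest and replicate 5 the lowest in both, with ranges of 1.61-fold and 2.01-fold.

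Hsph1 encodes HSP110, a nucleotide exchange factor of HSP70, and had another profile. Probe set 1425993_a_at read 13.01, 12.44, 12.41, 12.57 and 12.42 in replicates 1 to 5, and 1423566_a_at read 9.65, 8.77, 8.78, 8.997 and 8.89. Replicate 1 stood above the other 4 in both, while replicate 5 lay among them. Hspa4l, another HSP110 family gene, read 10.62, 9.47, 9.77, 9.93 and 9.43 and was also highest in replicate 1. In replicate 1 the 8 ciliated markers were high too, with a median deviation of 1.06 log2 units from their own means, against −0.57 to 0.34 in the other replicates, and a summed signal of 11.48 to 12.96 (log2) over the arrays. All 10 BioB and BioC hybridisation control probe sets were also highest there, averaging 12.57 against 11.63 to 11.79. The part of these in the Hsph1 and Hspa4l values was not tested.

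Hspa8 encodes the HSP70 that cells make at all times. Its probe sets 1455789_x_at, 1420622_a_at and 1420623_x_at averaged 14.10 ± 0.050, 14.04 ± 0.057 and 13.78 ± 0.092 (SD, n = 5), with ranges of 1.07-fold, 1.10-fold and 1.16-fold. The highest values of the arrays were 15.13 to 15.24. The fourth, 1431182_at, read 11.24, 10.68, 10.76, 11.63 and 10.29 in replicates 1 to 5, a 2.54-fold range with the same extremes as Hspa1a. The probe sets of Hspa8 disagree on how much the replicates differed. Of these, 1455789_x_at and 1420623_x_at are of a type that can hybridise to transcripts of related genes.

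Hsp90aa1, the inducible HSP90, was measured by 3 probe sets well above background. Probe set 1437497_a_at read 13.06, 12.76, 12.29, 13.12 and 12.25 in replicates 1 to 5, and 1426645_at read 12.55, 11.94, 11.74, 12.53 and 11.65. Probe set 1438902_a_at read 12.87, 12.66, 12.54, 12.86 and 12.26. Replicates 1 and 4 were the highest in all 3, and replicate 5 was lowest, with ranges of 1.84-fold, 1.87-fold and 1.53-fold.

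Hspb1 encodes the small heat shock protein that binds unfolded clients and actin. It read 11.62, 11.27, 11.34, 11.68 and 11.03 by 1422943_a_at and 11.65, 11.08, 11.19, 11.54 and 10.97 by 1425964_x_at. Again replicates 1 and 4 were the highest and replicate 5 the lowest, with ranges of 1.56-fold and 1.60-fold.

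The mitochondrial pair varied less. Hspd1, the HSP60 chaperonin, read 11.98, 11.90, 11.93, 12.06 and 11.87 in replicates 1 to 5, a 1.14-fold range. Hspe1, its HSP10 lid, read 13.32, 13.30, 13.13, 13.34 and 13.22 by 1450668_s_at and 11.77, 11.72, 11.32, 11.73 and 11.61 by 1422579_at, with ranges of 1.16-fold and 1.37-fold. Replicate 3, not replicate 5, was lowest for Hspe1.

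**Figure D2:**
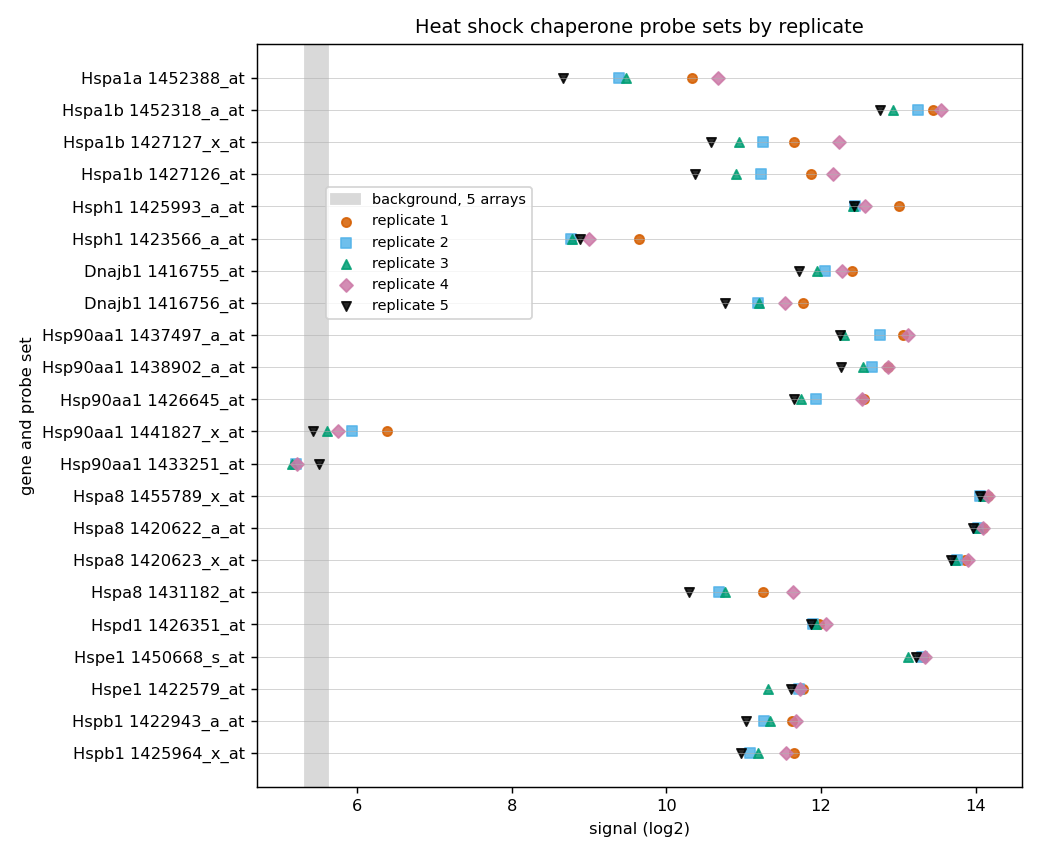
Signal (log2) of the 22 member probe sets in each of the 5 replicates, with 1 symbol per replicate and the span of the array backgrounds (5.33 to 5.63) in grey. Hspa1a, 1427126_at and 1427127_x_at of Hspa1b and 1431182_at of Hspa8 have the widest ranges (1.35 to 2.01 log2 units), and 1455789_x_at and 1420622_a_at of Hspa8 the narrowest (0.10 and 0.14).

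Whether the replicates differed beyond the usual spread was tested by setting each probe set's variance over the 5 arrays against the variance limma fitted for probe sets of that signal (one-sided F test). No member passed at a Benjamini-Hochberg adjusted p under 0.05 (0 of 22, against 0.0% of all 34958 probe sets), and the smallest limma adjusted p among members was 0.770. On 4 and 4.62 degrees of freedom the adjusted test could call only very large variance ratios. The largest among members, 34.6, had that adjusted p, so the lack of calls does not show that the replicates were alike. At an unadjusted p under 0.05 there were 12 of 22 member probe sets, or 54.5%, against 5.47% of all probe sets. With limma's fit without robust estimation the unadjusted count was 12 as well. These 12 were probe sets of Hspa1a, Hspa1b, Hsph1, Dnajb1, Hsp90aa1, Hspb1 and Hspa8, and probe sets of 1 gene are not independent. With the probe set of highest mean per gene, 5 of 9 members had an unadjusted p under 0.05 in the same fit, against 6.62% of 18194 genes. The largest variance ratios were 34.6 for 1427126_at and 27.7 for 1427127_x_at of Hspa1b, 23.3 for Hspa1a and 20.5 for 1437497_a_at of Hsp90aa1. The ratio was 0.476 for Hspd1 and 0.566 for 1455789_x_at of Hspa8.

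Of the 21 member probe sets above background, 10 were highest in replicate 1 and 11 in replicate 4. Among all 25209 probe sets above background, 22.7% were highest in replicate 1 and 14.3% in replicate 4. No member was highest in replicates 2, 3 or 5, where 16.1%, 26.3% and 20.6% of all were. Replicate 5 was lowest for 16 of the 21, or 76.2%, against 14.7% of all. The others were lowest in replicate 3, with 3 of 21 (25.3% of all), or in replicate 2, with 2 of 21 (20.6% of all). No member was lowest in replicates 1 or 4, where 22.8% and 16.7% of all were. These counts take several probe sets of the same gene, which are not independent. With 1 probe set per gene, 2 of 9 members were highest in replicate 1 and 7 in replicate 4. Replicate 5 was lowest for 6 of the 9, replicate 3 for 2 and replicate 2 for 1. The shares of all given here are per probe set. A range of at least 1 log2 unit was seen in 5 of 21 members, against 9.3% of all, and of at least 0.5 log2 units in 15 of 21, against 39.3%.

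**Figure D3:**
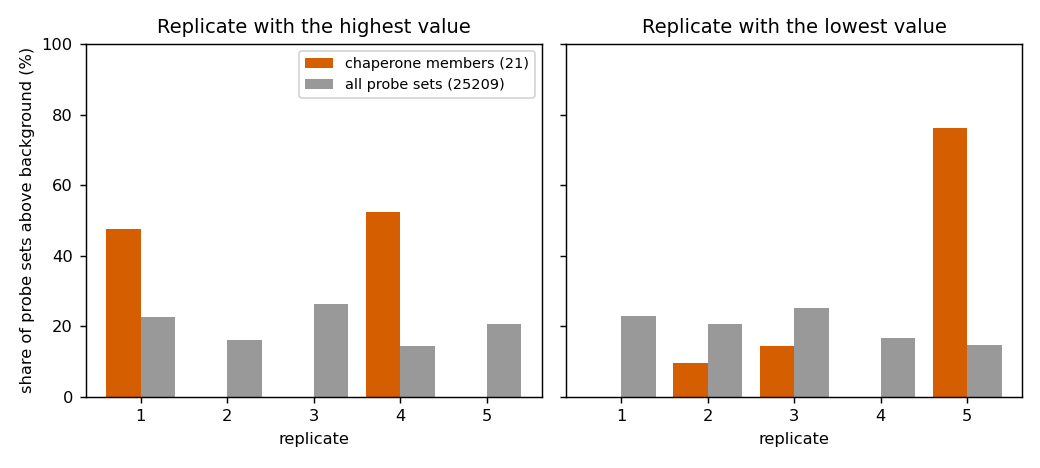
Share of probe sets above background (%) whose highest (left) or lowest (right) value fell in each replicate, for the 21 chaperone members (orange) and all 25209 probe sets (grey). Members are highest in replicate 1 or 4, and 76.2% of them are lowest in replicate 5. Several member probe sets measure the same gene and are not independent.

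The median deviation of the 21 members from their own means was 0.32, −0.05, −0.16, 0.23 and −0.37 log2 units in replicates 1 to 5. Over all probe sets above background it lay between −0.01 and 0.02. Members stood highest in replicates 1 and 4 and lowest in replicate 5, with a range of 0.71 log2 units after the median of all probe sets was subtracted. Without replicate 5 that range was 0.39. The signs in the 5 replicates were the same after quantile normalization and after median centring of the arrays.

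**Figure D4:**
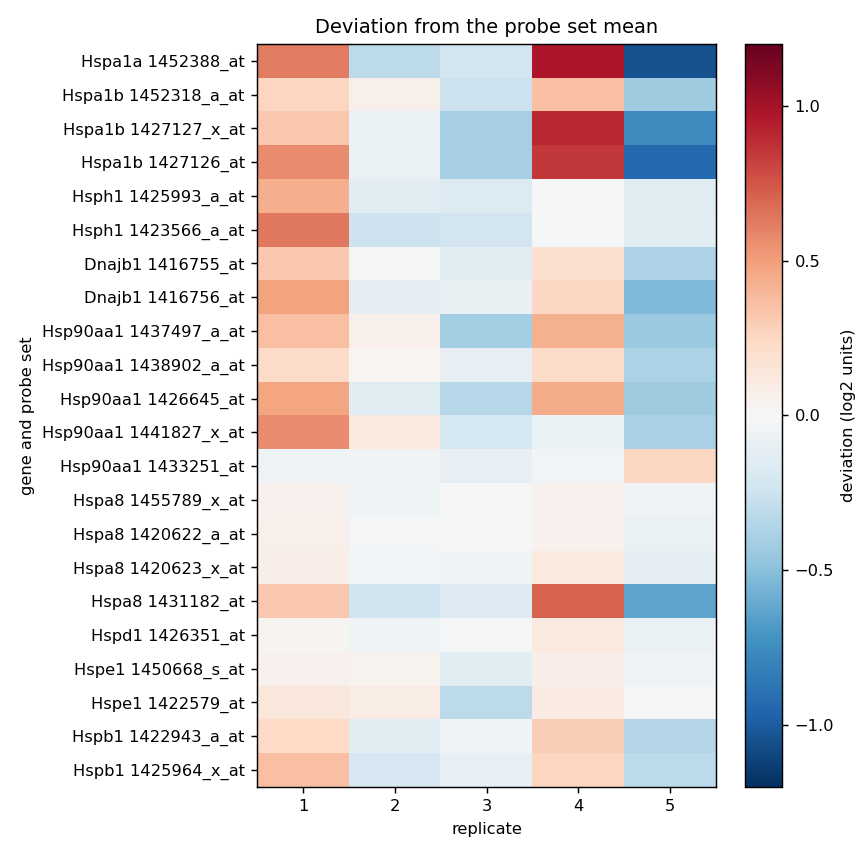
Deviation of each member probe set from its own mean over the 5 arrays (log2 units; red above, blue below). Columns 1 and 4 are red and column 5 is blue for most rows; Hsph1 is clearly red in column 1 only, and 1433251_at of Hsp90aa1, at background, goes the other way.

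Other measures also differed between these replicates, and their part in the chaperone values was not tested. The difference between the 3′ and 5′ control probe sets of Gapdh, a sign of RNA integrity, was 1.27 and 1.39 log2 units in replicates 1 and 4, against 1.52, 1.67 and 1.60 in replicates 2, 3 and 5. That of Actb was 0.60, 0.54, 0.84, 0.55 and 0.56 in replicates 1 to 5. Among erythroid markers, Alas2, which starts the making of heme in red cells, read 9.84, 8.89, 9.26, 9.71 and 9.12, and the anion exchanger gene Slc4a1 read 9.01, 7.66, 7.85, 9.22 and 7.76. Of the 4 erythroid markers measured, 2 lay above background, Hba-a1 and Epb42 did not, and their summed signal was 9.49 to 10.53 (log2) over the arrays. All 8 immune markers lay above background, with a summed signal of 14.07 to 14.98 and median deviations of 0.04, −0.08, −0.56, 0.24 and 0.27. Of these, 5 were highest in replicate 5, where most chaperones were lowest, and 2, the neutrophil genes S100a8 and S100a9, in replicate 1. S100a8 read 12.93, 11.82, 10.93, 12.86 and 12.26 in replicates 1 to 5, and S100a9 read 13.54, 12.58, 11.83, 13.46 and 12.96. Both were next highest in replicate 4, so their high replicates were those of the chaperones. All 8 alveolar type 1 markers lay above background, with a summed signal of 16.10 to 16.35. Their median deviations of −0.21, 0.14, 0.09, −0.12 and 0.12 were lowest in replicates 1 and 4, where the chaperones were highest, and 6 of the 8 were lowest in replicate 1. Rtkn2, for example, read 11.07, 11.79, 12.01, 11.18 and 11.89 in replicates 1 to 5. The 6 club cell markers had median deviations of −0.17, 0.24, −0.02, 0.02 and −0.04, and the 7 endothelial markers 0.13, −0.18, −0.16, −0.05 and 0.14. The 8 fibroblast and smooth muscle markers, at 0.06, 0.33, −0.57, −0.12 and 0.45, were all lowest in replicate 3. The 8 alveolar type 2 markers had median deviations of 0.03, −0.04, 0.01, 0.08 and −0.07, with a summed signal of 17.20 to 17.33. Of these 8, 5 were highest in replicate 4, against 14.3% of all probe sets above background. Replicate 5 was lowest for 4 of them, against 14.7% of all, and replicate 2 for the other 4, against 20.6%. Their extremes thus partly matched those of the chaperones, at smaller deviations.

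The wider chaperone network was measured through 9 lists of 110 genes, of which 106 had a probe set and 99 lay above background. None of the 106 passed the spread test with limma's fitted variance, and 5 had an unadjusted p under 0.05. That is 4.72%, against 6.62% of all genes, so the share was not above the background. The 5 were Hspa4l, Dnajb13, Cryab, Fosb and Egr2.

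Among heat shock factors and their regulators, 3 of 5 measured genes lay above background. Hsf4 read 8.20, 7.28, 8.12, 7.51 and 7.76 in replicates 1 to 5, and Hsbp1, which encodes a protein that binds heat shock factors, averaged 13.08 ± 0.065 (SD, n = 5). Hsf2bp was the third, at 6.33 ± 0.32. Hsf2 and Hsf5 were not above background, at 5.21 ± 0.24 and 4.50 ± 0.36. Hsf1 was not analysed here.

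Of the other HSP70 and HSP110 genes, 7 of 8 lay above background, the exception being Hspa1l (4.39 ± 0.29), a testis HSP70. The median deviations of this list were 0.03, −0.11, −0.04, 0.05 and 0.04 in replicates 1 to 5. Hspa2 averaged 10.46 ± 0.15 and Hspa4, an HSP110 family gene, 12.48 ± 0.096.

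Among 16 J-domain genes, 15 lay above background, and the exception was Dnajc6 (4.80 ± 0.41), the auxilin gene of nerve cells. Dnaja1, a cytosolic partner of HSP70, read 12.86, 12.65, 12.83, 12.97 and 12.63 in replicates 1 to 5, highest in replicate 4 and lowest in replicate 5 but with a range of only 0.34 log2 units. Dnaja2 averaged 12.40 ± 0.053 and Dnaja4 10.26 ± 0.25. Dnajb13, a J-domain protein of the ciliary axoneme, had the widest range of the list and read 9.81, 9.04, 8.19, 7.94 and 8.43. It was highest in replicates 1 and 2, as were 7 of the 8 ciliated markers; Dnah11, the exception, read 9.91, 9.49, 9.10, 9.94 and 9.61. Among those above background, Dnajb5 had the next widest range, 0.83 log2 units. The list had median deviations between −0.04 and 0.01.

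Of 8 other small heat shock protein genes, 5 lay above background, and Cryaa, Hspb3 and Hspb7 were not (5.03 ± 0.20, 4.68 ± 0.20 and 5.10 ± 0.12). Cryab, the widely expressed alpha-crystallin, read 12.56, 13.15, 13.04, 12.79 and 12.98 in replicates 1 to 5. It was lowest in replicates 1 and 4, where Hspb1 was highest. Hspb2 averaged 8.66 ± 0.21.

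All 17 measured co-chaperones of HSP90 and HSP70 lay above background. With 1 probe set per gene their median range was 0.24 log2 units, against 0.65 in the members. Counted over every probe set above background, the median range was 0.69 for members and 0.42 for the whole array. Stip1, which links HSP70 to HSP90, averaged 11.31 ± 0.14, Cdc37, the adaptor for kinases, 10.80 ± 0.13 and Ahsa1, the activator of the HSP90 ATPase, 11.45 ± 0.14 (SD, n = 5). The ranges of Fkbp5, a glucocorticoid-responsive immunophilin gene, and Bag4 were the largest, at 0.66 and 0.54 log2 units. Bag3, an HSP70 co-chaperone that stress induces, was chosen after its values were seen and read 9.98, 9.76, 9.80, 9.85 and 9.74 in replicates 1 to 5. Replicates 1 and 4 were the highest and replicate 5 the lowest of its narrow range.

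The chaperonin TRiC and its helper prefoldin fold actin and tubulin, and all 14 of their genes lay above background. Tcp1, Cct2 and Cct3 averaged 13.09 ± 0.036, 13.37 ± 0.065 and 12.73 ± 0.060, and Pfdn2 and Pfdn6 had the largest ranges, 0.51 and 0.31 log2 units. The median range was 0.17. All 11 measured mitochondrial chaperones and proteases were above background as well, with a median range of 0.22. Hspa9, the HSP70 of mitochondria, averaged 12.34 ± 0.044, Trap1, its HSP90, 11.91 ± 0.082 and Grpel1, a nucleotide exchange factor, 12.09 ± 0.084. The widest here were the protease genes Htra2 and Pitrm1, at 0.47 and 0.44 log2 units.

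All 13 endoplasmic reticulum chaperones lay above background. Hspa5, the HSP70 of that compartment, averaged 13.17 ± 0.028 and Hsp90b1, its HSP90, 12.68 ± 0.087 (SD, n = 5). Dnajb9 read 11.98, 12.03, 11.95, 12.20 and 11.69 in replicates 1 to 5, with replicate 4 highest and replicate 5 lowest, as for Hspa1a. Sdf2l1 had the widest range, 0.94 log2 units, and was highest in replicate 1. As a list, 8 of the 13 were lowest in replicate 3 and 5 in replicate 5.

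Immediate early genes, which tissue handling also induces, were all above background (14 of 14). Of these, 12 were lowest in replicate 5, the replicate lowest for most chaperone members, against 14.7% of all probe sets above background. Fos read 14.02, 13.97, 13.99, 14.05 and 13.81 in replicates 1 to 5, Fosb 12.42, 12.07, 12.57, 12.32 and 11.97, and Jun 13.43, 13.48, 13.43, 13.52 and 13.17. Egr2, with the widest range, read 11.62, 11.43, 11.22, 11.57 and 10.88. The median deviation of the list was −0.13 in replicate 5 and −0.01 to 0.05 in the others. Of the 14, 3 were highest in replicate 1 and 3 in replicate 4, against 22.7% and 14.3% of all probe sets above background.

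**Figure D5:**
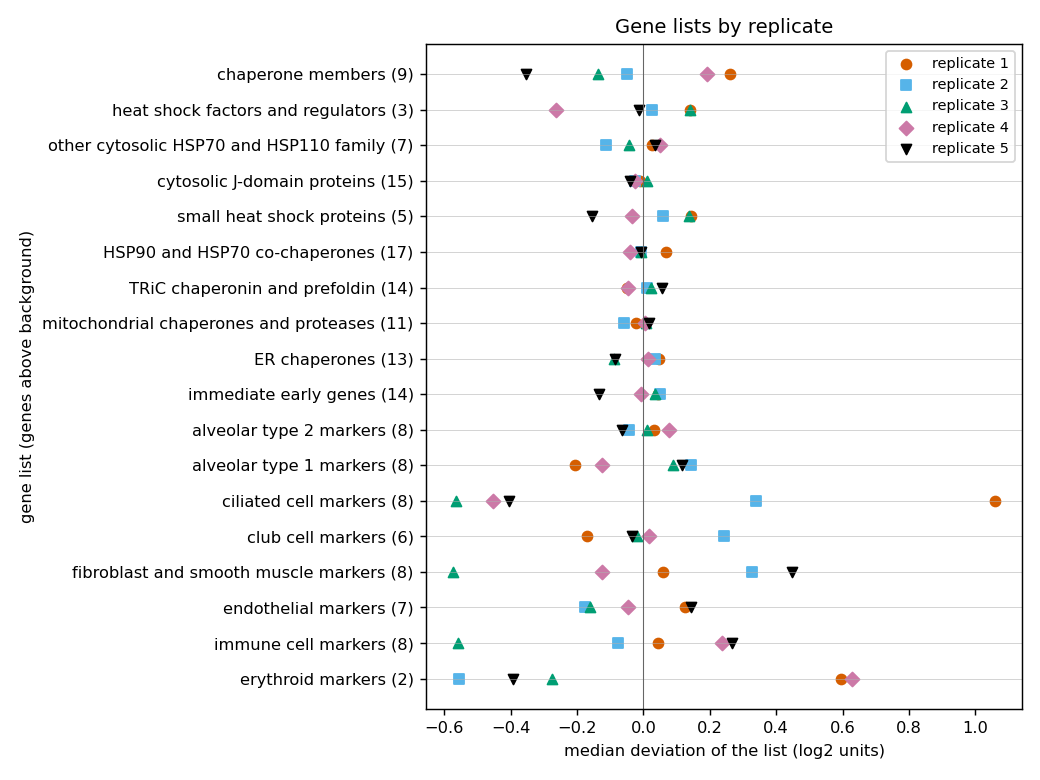
Median deviation (log2 units) of each gene list in each replicate, with 1 probe set per gene above background and the number of genes in brackets. The 9 chaperone members lie at 0.26 and 0.19 in replicates 1 and 4 and at −0.35 in replicate 5, while J-domain, co-chaperone, TRiC and mitochondrial lists stay between −0.06 and 0.07. Other lists move more: small heat shock proteins span −0.15 to 0.14 and heat shock factors −0.26 to 0.14. The 2 erythroid markers lie at 0.59 and 0.63 in replicates 1 and 4 and at −0.39 in replicate 5. Ciliated markers lie at 1.06 in replicate 1.

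The profile of Hspa1a, the member with the widest range, was set against 1400 other genes above background with at least 0.5 times its SD, by the root-mean-square difference of the centred values over the 5 arrays. The closest was Ptgs2, the inducible cyclooxygenase, which read 12.15, 11.43, 11.56, 12.32 and 10.75 in replicates 1 to 5, at a difference of 0.18 log2 units. Next were Eldr (0.19), the transcription factor gene Sox21 (0.19), Esco2 (0.21), an acetyltransferase of cohesin, and Lratd1 (0.21). Some of these lay near background. Sox21 read 6.78, 5.66, 5.63, 6.52 and 4.82 in replicates 1 to 5, and the last value is below the background of that array, 5.49. Eldr read 7.37, 6.26, 6.16, 7.49 and 5.88. By the same measure the Hspa1b probe sets lay at 0.15, 0.23 and 0.45, 1431182_at of Hspa8 at 0.26 and the probe set of Hspd1 at 0.65. Close profiles over 5 arrays are only a description of these samples.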

How the data were processed

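Per the labels' protocols, RNA of the 5 samples was extracted with RNeasy, amplified (NuGEN Ovation), labelled with biotin and put on Affymetrix arrays in 1 colour. The authors deposited 1 log2 value per probe set and array; the log base was inferred from the range of 2.46 to 15.24, while for the software, background correction and normalization nothing is given in the sources used here. Of 45101 probe sets, 34958 had 1 gene symbol in the platform annotation, 932 had several and 9211 were unnamed here; only the first kind was used. Saturation was not checked, since scanner files were not used.

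Each probe set's values minus the array background entered an intercept-only model (limma 3.58.1, R 4.3.3, eBayes with trend), and 4 of the 85 receptor probe sets were called too. The spread test used eBayes with trend and robust estimation, on 4 and 4.62 degrees of freedom. Both p-values were adjusted over all 34958 probe sets, and both tests were tested on simulated data. In the simulation the SD followed the signal alone, except in probe sets that were given a larger SD. It therefore does not show how often the spread test calls a real difference in these data. The p-values measure only the spread between these 5 samples, and the number of arrays limits the precision. Lists use the probe set of highest mean per gene. Members and lists were chosen with earlier results of these data known. All members are named, with, per list, the first 3 measured genes, the 2 with the widest range, those whose background call went against most of the list where there were 5 or fewer, and the 5 genes closest to the widest member; some others were named after their values were seen. Alternatives were other backgrounds, probe set rules, normalizations, variance fits and leaving out replicates. Sequences come from RefSeq (GRCm38.p6).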

Additional observations from a re-analysis of the deposited data

Results flagged for a closer look

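A single replicate stood far from the other 4 by Dixon's test, at a critical value of 0.71 for 5 samples, in 3 of 22 member probe sets and 5 of 106 pathway genes. Chance gives about 1 in 20 of such results. Both probe sets of Hsph1 were set apart by a high replicate 1: 1425993_a_at read 13.01 there (gap over range 0.728) and 1423566_a_at read 9.65 (0.741). The Hsp90aa1 probe set 1433251_at, at background, was set apart by replicate 5 at 5.50 (0.818). Among the pathway genes, Hspa4 was low in replicate 2 at 12.31 (0.787), Hspb7, at background, was low in replicate 3 at 4.88 (0.728) and Sugt1 was low in replicate 4 at 11.79 (0.822). Jun was low in replicate 5 at 13.17 (0.731), and Ier3 was high in replicate 3 at 13.25 (0.778).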

How the results depend on the processing

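The count of member probe sets above background, 21 of 22, was 20 to 22 under other background percentiles, organ-restricted genes as background, quantile normalization, median centring, no variance trend and without each replicate in turn. It was 9 of 9 with the probe set of highest mean per gene, 9 of 9 with the median over probe sets and 8 of 9 without the _s_at, _x_at and _a_at types, which test fewer probe sets. The Hsp90aa1 probe set 1433251_at lay 0.25 log2 units above the 90th percentile background, and 1441827_x_at lay −0.56 from the 99th percentile background and −2.77 from organ-restricted genes. No member passed the adjusted spread test under any alternative run, though on so few arrays that test could call only very large variance ratios. At an unadjusted p under 0.05 the member count of 12 was 8 to 13 without each replicate in turn. Over all probe sets, 0 passed the adjusted spread threshold, against 4 without replicate 1, 3 without replicate 3 and 1 without the _s_at, _x_at and _a_at types. All probe sets above background numbered 25209, and 13877 with organ-restricted genes as background. The pathway genes above background numbered 99, 99 without each replicate in turn and 89 with organ-restricted genes. The range of the median deviations was 0.39 to 0.76 log2 units without each replicate in turn (0.39 without replicate 5) and 0.63 without replicates 1 and 3 together, a choice made after seeing the data. No paired analysis was possible because all samples form 1 group. Signal over background limits the calls of 1441827_x_at and 1433251_at, which lay 0.37 and −0.20 log2 units from it.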
